A study of Drosophila melanogaster with 96 samples.

Results

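The genes described are 34 muscle sarcomere genes of Drosophila melanogaster, chosen by FlyBase symbol from the 17370 genes in the files, and all 34 were found. Unc-89 is listed in the annotation table as Obsc and is called Obsc here. They were sorted by role into 4 flight muscle genes, 2 genes of jump and leg muscle, 5 actin and troponin C genes of other body muscle, 10 genes of the thick and thin filaments, 10 genes of giant proteins and the Z-disc, the calcium pump gene SERCA, and the regulator genes Mef2 and salm. Polyadenylated RNA was counted in whole bodies of 96 single flies, each with its own stranded library. All flies were virgin, 3-day-old adults of the laboratory strain w1118, which carries a white eye mutation. Every fly, controls included, was given a chemically defined food for 24 h and then starved on phosphate buffered saline for 6 h. Flies of 2, 4 and 8 h were then refed the same food with the dye sulforhodamine B. Flies of 0 h were starved and not yet refed, so their DMSO level is that of the group they were labelled for. The refeeding food held dimethyl sulfoxide (DMSO, a drug solvent) at 0.1, 0.2 or 0.4%, or none, and flies were taken at 0, 2, 4 and 8 h, with 3 flies in each of the 32 groups of sex, time and DMSO level. Flies of a time point sat on 1 plate, so time and plate cannot be told apart. Per the labels' protocols, RNA of 2 distant insect species was mixed in before the libraries were made.

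The sarcomere is the contractile unit of striated muscle, in which thick filaments of myosin slide along thin filaments of actin, and calcium starts contraction through the troponin and tropomyosin of the thin filament. Adult flies carry fibrillar indirect flight muscle, which is activated by stretch, and tubular muscle in the legs, the jump muscle and the body wall. Each kind uses its own isoforms of actin and troponin C, while most other sarcomere genes serve all of them.

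Female libraries held 2617075 to 9215796 gene counts and male libraries 958896 to 8493895. Between 4.80 and 51.4% of the gene counts were ribosomal RNA (median 17.6%). In the library labelled female, 8 h, 0.4% DMSO, replicate 3, the sperm-tail gene Mst84Db stood at 286 CPM (counts scaled to library size) and the seminal-fluid gene Acp26Aa at 408. The other 47 female libraries reached at most 0.780 and 1.87 CPM, so this library goes against its label in part, and comparisons with females at 8 h were also run without it. All 24 libraries of 0 h held more spike-in counts (59109 to 387495) than any library of 2, 4 or 8 h (7530 to 56315), in both sexes, so every comparison with 0 h sets libraries against each other that differ in this. The shallowest library was male, 4 h, 0.4% DMSO, replicate 1, with 42.7% ribosomal RNA. The title of male, 0 h, 0.4% DMSO, replicate 2 gives 0 h and its characteristics give 8 h, and the title was used. Its 272394 spike-in counts lay far above those of every library of 2, 4 or 8 h, which goes with the title. All females were sequenced in 1 run. That run also held the DMSO-free males of 0 and 2 h and 2 of the 3 DMSO-free males of 4 h, and another run held all other males.

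The 34 genes made up 0.614 to 5.29% of the gene counts in females (median 2.01%) and 1.44 to 3.89% in males (median 2.88%). Per kilobase of exon, the highest median levels in females over all times were those of Mlc2, a myosin light chain gene (842 CPM per kb), the jump and leg muscle actin gene Act79B (823), the body wall actin gene Act57B (694) and the light chain gene Mlc1 (382). In males Act79B came first with 1637 CPM per kb, followed by Mlc2 with 1183 and Act57B with 712. Act88F, the actin of flight muscle, ranked 26 of 34 in females with 17.5 CPM per kb and 21 in males with 64.7. The lowest gene in both sexes was Zasp67, a gene of the Zasp family of Z-disc proteins, with 0.187 CPM per kb in females and 0.266 in males.

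Within the actin genes, levels per length show how the isoforms divided. Of the summed level of Act79B, Act57B, Act87E and Act88F, Act79B took a median of 44.8% in females and 56.0% in males. Act57B took 38.6% in females and 24.4% in males. Act87E, another body wall actin gene, took 15.1 and 16.8%, and Act88F took 0.953 and 2.32%. The coding sequences of the actin genes are nearly identical, so reads could have been split between them or set aside, and their separate levels are uncertain to that extent. Among the 5 troponin C genes, the calcium sensors of the thin filament, TpnC73F took the largest median share over all times in females (30.2%) and TpnC41C, of tubular muscle, in males (35.2%). At 8 h in females the order differed, with TpnC41C at 29.8%, TpnC25D at 28.3% and TpnC73F at 24.9%. The flight muscle gene TpnC4 took 1.66% in females and 2.14% in males, but reached 30.6 and 50.2% in single flies.

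In females part of the sarcomere genes rose after 2 h of refeeding, and the count moved strongly when single flies were left out. Against 0 h, 15 of the 34 genes rose and 0 fell (edgeR's quasi-likelihood test, adjusted after Benjamini-Hochberg, threshold 0.05, 12 flies at each time), beside 9.27% of all genes tested that rose. All 34 log2 changes were above 0, with a median of 0.78 beside -0.04 over all genes tested, and 33 passed an unadjusted p of 0.05. The share of all genes at an unadjusted p is not given, so such counts have no background beside them, here and below. Leaving out any 1 fly gave 3 to 31 genes. Without the 2 h female on 0.2% DMSO replicate 2, 3 genes rose, and the median log2 change was 0.56. The 0 h libraries also stood apart in spike-in counts, and the part of that in the result was not tested. Whole bodies were measured, so fewer cells of a type and less RNA per cell cannot be told apart.

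Act88F measured 4.53, 28.0 and 74.6 CPM at 0 h as the lowest, median and highest of 12 females, and 15.8, 47.0 and 1256 at 2 h. The 2 h females on 0.2% DMSO held 15.8, 1256 and 43.3 CPM, so the highest value came from a single fly, and the groups overlapped. The 2 h females without DMSO, replicate 3 (181 CPM), and on 0.4%, replicate 1 (171 CPM), also lay above the highest 0 h fly. The difference was 1.83 on the log2 scale (SE 0.58, adjusted p = 0.0322). The gene fln encodes flightin, a thick filament protein of flight muscle. It measured 0.634, 4.67 and 14.7 CPM at 0 h and 3.74, 7.82 and 415 at 2 h (log2 2.06, SE 0.59, adjusted p = 0.0210). Strn-Mlck, which encodes stretchin and a myosin light chain kinase, went from 45.6, 129 and 217 CPM to 82.9, 193 and 1114 (log2 0.98, SE 0.31, adjusted p = 0.0322). In both genes the groups overlapped and the same single fly was highest. TpnC4 held 0.634, 3.503 and 10.7 CPM at 0 h and 2.17, 3.66 and 270.5 at 2 h, and its difference did not pass (log2 1.78, SE 0.64, adjusted p = 0.0577).

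The jump and leg muscle genes did not pass at 2 h. Act79B held 320.5, 1144 and 2707 CPM at 0 h and 501, 2323 and 3805 at 2 h (log2 0.80, SE 0.31, adjusted p = 0.0785). TpnC41C had a log2 difference of 0.59 (adjusted p = 0.161). Of the other body muscle isoforms, Act57B and TpnC73F rose. Act57B went from 281, 1092 and 2400.0 CPM to 451, 2459 and 4279 (log2 0.99, SE 0.32, adjusted p = 0.0367). TpnC73F went from 21.3, 89.9 and 174 CPM to 53.7, 197 and 422 (log2 1.13, SE 0.32, adjusted p = 0.0182). The lowest 2 h flies lay within the 0 h range in both, while the 2 h medians were above the highest 0 h values. Act87E (log2 0.78), TpnC25D (0.69) and TpnC47D (0.75) did not pass, with adjusted p of 0.0714, 0.0776 and 0.0905.

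**Figure D1:**
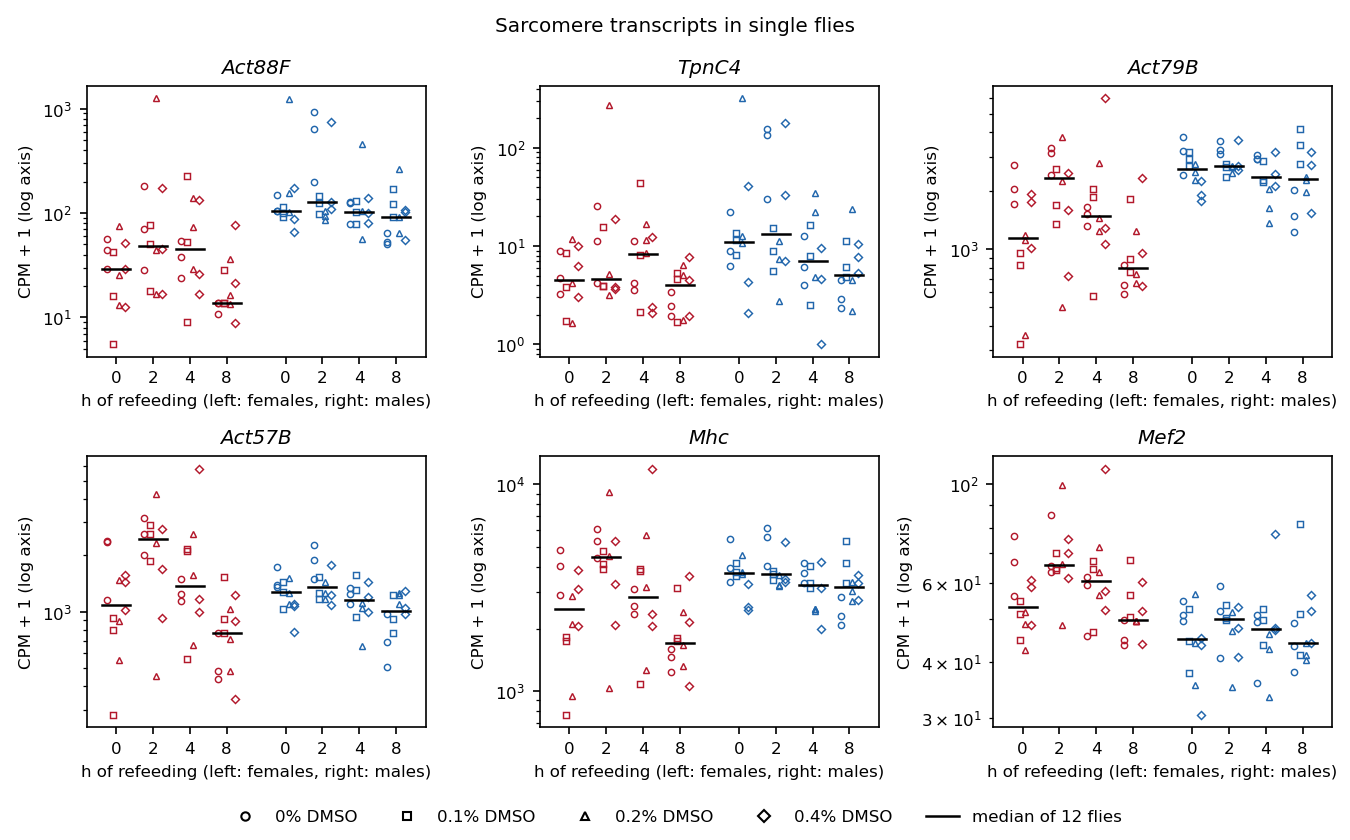
Level of 6 sarcomere genes in each fly, as CPM + 1 on a log axis, against hours of refeeding, for 48 females (left of each panel, red) and 48 males (right, blue). Marker shapes give the DMSO level and black bars the median of 12 flies; in females the median Mhc level was 2494 CPM at 0 h, 4464 at 2 h and 1709 at 8 h, while single flies of both sexes stand far above the rest in Act88F and TpnC4.

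Of the 10 filament genes 2 rose at 2 h. Mhc, the myosin heavy chain gene, measured 766, 2494 and 4814 CPM at 0 h and 1032, 4464 and 9208 at 2 h (log2 0.89, SE 0.31, adjusted p = 0.0479). Mf, which encodes the thick filament protein myofilin, had a log2 change of 0.66 (SE 0.22, adjusted p = 0.0426). The groups overlapped in both. The genes of troponin I (wupA, log2 0.76, adjusted p = 0.0578), troponin T (up, log2 0.72), paramyosin (Prm, log2 0.82), the light chains (Mlc1, 0.71, and Mlc2, 0.72), tropomyosin (Tm1, 0.35, and Tm2, 0.78) and the thin filament cap tropomodulin (tmod, 0.50) did not pass.

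Of the 10 genes of giant and Z-disc proteins 7 rose. Obsc, which encodes the giant M-line protein obscurin, went from 96.2, 249.6 and 504 CPM to 178, 481 and 1127 (log2 1.02, SE 0.27, adjusted p = 0.0139). The gene bt, of the titin-like protein projectin, went from 230.5, 483 and 901 to 379.9, 898 and 2189 (log2 0.91, SE 0.24, adjusted p = 0.0136). The gene sls, of the titin-like protein sallimus, went from 205, 528 and 817 to 391, 829 and 2092 (log2 0.83, SE 0.24, adjusted p = 0.0237). In these 3 genes the 2 h median lay close to the highest 0 h fly, and the groups overlapped. Msp300, the nesprin that ties nuclei to the cytoskeleton (log2 0.88), Zasp52 (0.79) and the muscle LIM protein gene Mlp60A (0.79) rose too. Zasp67 passed with a log2 change of 1.97 (SE 0.66, adjusted p = 0.0408) from medians of 0.575 and 1.30 CPM, where 3 counts correspond to 0.326 to 1.15 CPM in a female library. Actn, of alpha-actinin (log2 0.55), Zasp66 (0.54) and Mlp84B (0.64) did not pass. SERCA, which pumps calcium back into the sarcoplasmic reticulum, had a log2 difference of 0.55 (adjusted p = 0.112).

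Of the regulators, Mef2, a transcription factor gene of all muscle, rose by a small amount, from 41.5, 52.2 and 75.7 CPM to 47.5, 64.9 and 98.8 (log2 0.35, SE 0.11, adjusted p = 0.0295). The selector gene of fibrillar flight muscle, salm, held 2.48, 5.66 and 13.5 CPM at 0 h and 2.79, 11.3 and 20.7 at 2 h, and did not pass (log2 0.76, adjusted p = 0.141). Groups overlapped in both genes.

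The female on 0.2% DMSO at 2 h, replicate 2, bore heavily on these calls. Without it 3 genes rose at 2 h: TpnC73F (log2 0.90, adjusted p = 0.048), bt (0.67, adjusted p = 0.041) and Obsc (0.80, adjusted p = 0.039). Act88F then had a log2 difference of 0.82 (adjusted p = 0.31), fln of 0.87 (adjusted p = 0.27) and Zasp67 of 0.96 (adjusted p = 0.31). The count of 15 was 9 without the 0 h female on no DMSO replicate 1 and 4 without the 0 h female on 0.4% replicate 1. It was 24 to 31 without any 1 of 5 other flies: 0 h on no DMSO replicate 3 (24), 0 h on 0.1% replicate 1 (25), 0 h on 0.2% replicate 2 (24), 2 h on 0.2% replicate 1 (31) and 2 h on 0.4% replicate 3 (27). With DMSO-free flies only (3 at each time) 0 genes passed in edgeR, with a median log2 difference of 0.31, while the 3 foods with DMSO gave 14 genes and a median of 0.94.

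Other muscle genes and nerve genes moved in the same females. Of 18 tested genes of excitation, calcium release and muscle attachment, 6 rose at 2 h and the median log2 change was 0.47. They included RyR, the calcium release channel of the sarcoplasmic reticulum (log2 0.95, SE 0.24), Ca-alpha1D, a subunit of the voltage-gated calcium channel (0.87, SE 0.24), and Fhos, a formin that builds thin filaments (0.89, SE 0.26). Of 5 muscle energy genes 2 rose, Gpo1 of the glycerol phosphate shuttle (log2 0.91) and Glyp, glycogen phosphorylase (0.45). Of 12 other muscle regulators 3 rose, sr (log2 1.43), vg (0.93) and mbl (0.83). Among 11 cytoplasmic counterparts of the sarcomere genes 0 rose and 1 fell, the cytoplasmic actin gene Act42A (log2 -0.57). Nerve markers rose in 9 of 11 (median log2 0.88), and their summed unnormalised level ran from 271.1 to 904.7 CPM at 0 h (median 509.8) and from 218.0 to 1328 at 2 h (median 962.9). Female germline markers gave 0 calls among 12 (median log2 -0.17). Their sums ran from 1549 to 4995 CPM at 0 h (median 3142) and from 763.2 to 3558 at 2 h (median 2481). Sums of 14 egg shell and yolk genes ran from 10370 to 42400 CPM at 0 h (median 19830). At 2 h these ran from 1623 to 24790 (median 15640). None of the nerve, germline, egg shell or yolk genes was at 0 in all libraries, and their part in the result was not tested.

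After 8 h the sarcomere genes of females were lower than at 2 h. Of the 34 genes 31 fell and 0 rose (12 flies against 12, same test), beside 18.7% of all genes that fell. The median log2 change was -0.99, beside -0.02 over all genes. This comparison shares the 2 h flies with the one above, so a high group at 2 h enters both. Act88F measured 7.90, 12.8 and 75.0 CPM at 8 h against 15.8, 47.0 and 1256 at 2 h (log2 -2.48, SE 0.59, adjusted p = 0.00599). The gene fln measured 0.653, 3.06 and 5.70 CPM at 8 h (log2 -2.76, SE 0.62, adjusted p = 0.00476), and TpnC4 0.677, 2.97 and 6.67 (log2 -2.50, SE 0.67, adjusted p = 0.0096). The 8 h medians of all 3 genes lay under the 2 h medians, and the groups overlapped.

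The other isoforms followed with smaller changes. TpnC73F fell to 33.9, 56.7 and 126 CPM (log2 -1.66, SE 0.32, adjusted p = 0.00262) and Act57B to 343, 768 and 1532 (log2 -1.55, SE 0.32, adjusted p = 0.00331), so the 8 h median of each was below its 0 h median. Act79B fell to 584, 791 and 2328 CPM (log2 -1.10, SE 0.31, adjusted p = 0.0123). TpnC47D (log2 -1.18), Act87E and TpnC25D also fell. TpnC41C did not pass, with 43.8, 209 and 279 CPM at 2 h and 74.4, 112 and 299.6 at 8 h (log2 -0.55, adjusted p = 0.117).

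All 10 filament genes fell. Mhc measured 1061, 1709 and 3610 CPM at 8 h (log2 -1.22, SE 0.31, adjusted p = 0.0072), and Prm and up each fell by 1.23 on the log2 scale. Of the giant and Z-disc genes 9 of 10 fell, by a median of 0.81 on the log2 scale; Zasp67 fell by 2.54 (SE 0.70, adjusted p = 0.0108), sls by 0.94, and Zasp66 did not pass (log2 -0.58, adjusted p = 0.0529). SERCA held 1157, 3836 and 5601 CPM at 2 h and 1569, 2106 and 5051 at 8 h and did not pass (log2 -0.52, adjusted p = 0.0833). Both regulators fell. Mef2 went to 42.6, 48.6 and 66.8 CPM (log2 -0.45, SE 0.11, adjusted p = 0.00659) and salm to 1.35, 4.77 and 14.2 (log2 -1.13, SE 0.35, adjusted p = 0.0193).

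Nerve markers fell in 10 of 11 in the same comparison (median log2 -0.91), with sums of 243.9 to 750.1 CPM at 8 h (median 501.4), and their part in the result was not tested. Genes of excitation and attachment fell in 12 of 18 (median log2 -0.66). The cytoplasmic counterparts had a median of 0.06, with 1 gene higher, the cofilin gene tsr, and 0 lower. Without the 2 h female on 0.2% DMSO replicate 2, 16 of the 34 genes fell; Act88F (log2 -1.47, adjusted p = 0.047) and fln (-1.58, adjusted p = 0.037) passed, and TpnC4 (-1.26, adjusted p = 0.11) and Zasp67 (-1.53, adjusted p = 0.08) did not. With the 8 h library that held male transcripts left out 33 genes fell. With only the 3 foods with DMSO 1 gene fell, TpnC73F (log2 -1.58, adjusted p = 0.039), and on food without DMSO alone 0 passed in edgeR with a median of -1.47.

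Against 0 h, none of the 34 genes passed in females at 4 or 8 h. At 4 h in females 0 of 34 genes passed in edgeR, beside 0% of all genes, with all 34 log2 differences above 0 and a median of 0.52 beside 0.01 for all genes (7 at an unadjusted p of 0.05, 0 by DESeq2). At 8 h against 0 h 0 passed in edgeR, beside 3.59% of all genes, with a median of -0.21 (0 unadjusted, 0 by DESeq2), and 0 passed without the 8 h library that held male transcripts. These 2 comparisons share the 0 h flies with the one at 2 h. By medians over 12 flies, 32 of the 34 genes were highest at 2 h in females, the others being fln and TpnC4 at 4 h. For 32 genes the lowest median was at 8 h, the others being TpnC41C and bt at 0 h. The share of all genes with such an order was not computed, so these counts have no background beside them. The same flies enter the median of every gene, so the genes are not independent.

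**Figure D2:**
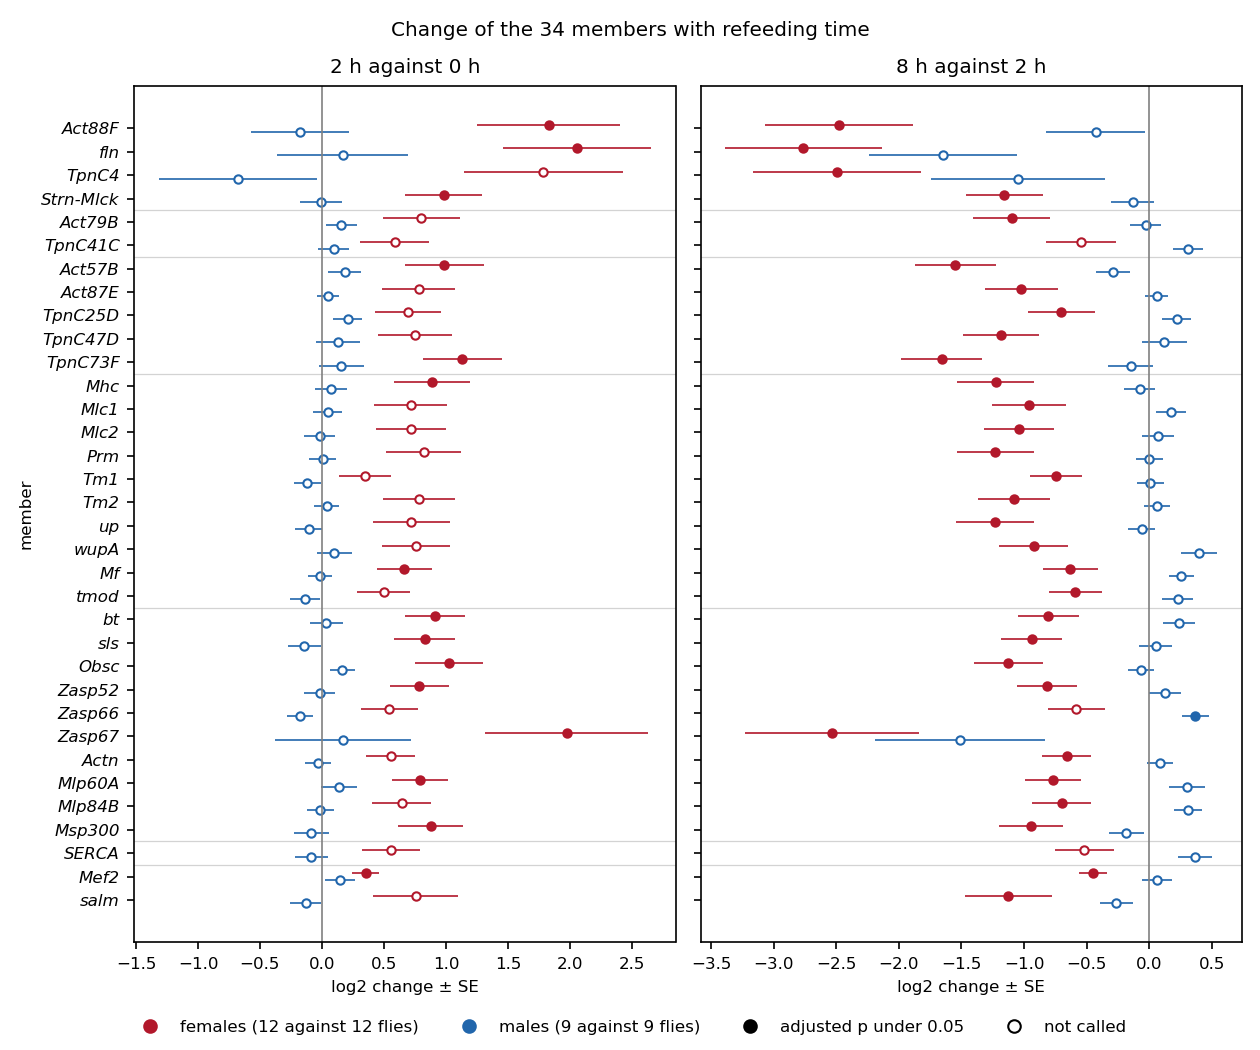
Log2 change ± SE of the 34 genes, grouped by role from flight muscle at the top to regulators at the bottom, at 2 h against 0 h (left) and at 8 h against 2 h (right). Females (red, 12 flies against 12) lie to the right of 0 for all genes on the left panel and to the left of 0 on the right panel, with 15 and 31 filled points for adjusted p under 0.05. Males (blue, 9 against 9) have 0 and 1 filled points.

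In males times were compared over the 3 foods with DMSO, 9 flies against 9, since those libraries share a run, and 0 to 5 of the genes passed in a comparison. At 2 h 0 of 34 genes passed in edgeR, beside 1.4% of all genes, with a median log2 difference of 0.02 (0 at an unadjusted p of 0.05, 0 by DESeq2). At 4 h 0 passed in edgeR, beside 0.957% of all genes, with a median of -0.13 (3 unadjusted, 0 by DESeq2), and 0 without the shallowest library. Over all 12 males of a time, Mhc held 2472, 3728 and 5417 CPM at 0 h, 3223, 3668 and 6161 at 2 h, 2004, 3245 and 4215 at 4 h and 2091, 3190 and 5340 at 8 h. SERCA held 3332, 4493 and 6095 at 0 h and 3362, 4608 and 8584 at 8 h. The ranges of these times overlapped in both genes. Mef2 held medians of 43.9, 49.0 and 43.1 CPM at 0, 2 and 8 h.

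At 8 h against 0 h in males 4 of the 34 genes rose, beside 6.95% of all genes, and 1 fell, beside 4.38%. TpnC25D went from 102, 125 and 165 CPM to 138, 159.9 and 269 (log2 0.43, SE 0.12, adjusted p = 0.0132), and wupA from 623, 734 and 895 to 685, 913 and 1713 (log2 0.50, SE 0.14, adjusted p = 0.0199). TpnC41C went from 177, 253 and 311 to 202, 301 and 474 (log2 0.41, SE 0.12, adjusted p = 0.0271). In each the groups overlapped and the shift of the median was smaller than the range among the flies of either time. Mlp60A also rose (log2 0.44, SE 0.14, adjusted p = 0.0394), and salm fell from 11.4, 14.4 and 27.2 CPM to 7.71, 12.7 and 14.8 (log2 -0.39, SE 0.13, adjusted p = 0.0446). Both shares are near the background. The median over the 34 genes was 0.09, beside 0.01 for all genes, and 3 of 4 accessory gland markers rose with a list median of 0.86; their part in the result was not tested.

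The flight muscle genes of males did not pass at 8 h, with Act88F at log2 -0.60 (adjusted p = 0.354), fln at -1.48 (SE 0.60, adjusted p = 0.1) and TpnC4 at -1.73 (SE 0.69, adjusted p = 0.0955). The count of 5 was 1 without the 8 h male on 0.2% DMSO replicate 1 or on 0.4% replicate 2. It was 2 without 0 h on 0.1% replicate 1, 8 h on 0.1% replicate 1, 0 h on 0.2% replicate 1 or 0 h on 0.4% replicate 1. It was 3 without 0 h on 0.1% replicate 2, 8 h on 0.4% replicate 3 or 0 h on 0.4% replicate 2, the library with the label conflict. Over all 4 foods 6 genes fell and 0 rose, 1 of them shared with the 5, among them fln (log2 -1.73, adjusted p = 0.033) and salm (-0.52, adjusted p = 0.0023), but there the run differs between the control times. At 8 h against 2 h Zasp66 rose, from 313, 527 and 616 CPM to 457, 652 and 999 (log2 0.37, SE 0.11, adjusted p = 0.0362), beside 3.37% of all genes. That call was lost without any 1 of 11 libraries: at 8 h, 0.1% replicates 1 and 3, 0.2% replicates 1 and 2, and 0.4% replicates 2 and 3, and at 2 h, 0.1% replicates 1 and 3, 0.2% replicates 2 and 3, and 0.4% replicate 2. Without the 8 h male on 0.4% replicate 1 the count was 2. Over all 4 foods 12 genes passed, of which 11 fell and 1 rose, but there the DMSO-free males of 2 and 8 h came from different runs.

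Whether the sexes differed in the change with time was tested in a fit of all 96 libraries. For 2 h against 0 h 0 of 34 genes passed in edgeR, beside 0.00766% of all genes, although all 34 differences were above 0, that is, more positive in females, with a median of 0.75 beside -0.02 for all genes. Of these 28 passed an unadjusted p of 0.05 and 7 passed in DESeq2. The shares of all genes at that p and in DESeq2 are not given here. The unadjusted and DESeq2 counts in this paragraph therefore have no background beside them. The smallest adjusted p was that of sls (log2 0.99, SE 0.27, adjusted p = 0.189). For 8 h against 2 h 0 passed in edgeR, beside 0.00766% of all genes, with all 34 below 0 and a median of -0.69 beside 0.22 (23 unadjusted, 3 by DESeq2). With that female library left out 0 passed too. TpnC73F had the smallest adjusted p there (log2 -1.21, SE 0.37, adjusted p = 0.285). By edgeR the changes with time were therefore not shown to differ between the sexes at the adjusted threshold.

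Between the sexes themselves, most of the genes were lower in females, flight muscle genes among them. Among DMSO-free flies of 0 and 2 h (6 females and 6 males, all in 1 run), 24 of the 34 genes were lower in females, beside 39.8% of all genes, and 1 was higher, beside 26.1%. The median log2 difference was -0.50, beside -0.19 over all genes. All 4 flight muscle genes were lower in females. Act88F measured 23.4, 37.4 and 142 CPM in females and 109, 191 and 1001 in males (log2 -2.53, SE 0.41, adjusted p = 8.84e-05). The gene fln measured 3.74, 5.91 and 25.2 CPM in females and 9.79, 42.8 and 199 in males (log2 -2.46, SE 0.43, adjusted p = 0.000174). TpnC4 measured 1.56, 4.70 and 19.0 against 5.68, 27.5 and 169 (log2 -2.60, SE 0.53, adjusted p = 0.000612). In these 3 genes the highest female lay above the lowest male. Strn-Mlck, with 102, 145 and 212 CPM in females and 236, 337 and 842 in males, did not overlap (log2 -1.44, SE 0.22, adjusted p = 5.17e-05).

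The jump and leg muscle genes were lower in females by smaller amounts. TpnC41C held 117, 201 and 221 CPM in females and 245, 322 and 409 in males, with no overlap (log2 -0.81, SE 0.18). Act79B held 1437, 2179.8 and 2603 CPM in females and 2572, 3494 and 4089 in males, with a narrow overlap (log2 -0.79, SE 0.15, adjusted p = 0.00036). Of the other body muscle isoforms, Act57B did not pass, with 974, 1886 and 2475 CPM in females and 1462, 1775 and 2466 in males (log2 -0.02, SE 0.17, adjusted p = 0.94). Act87E was lower in females without overlap (467, 766 and 865 CPM against 992, 1194 and 1293, log2 -0.68). TpnC73F was the only one of the 34 genes called higher in females, with 60.2, 132 and 171 CPM against 63.5, 91.4 and 117 in overlapping groups (log2 0.49, SE 0.16, adjusted p = 0.0161).

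Of the filament genes 7 of 10 were lower in females, among them Mhc with 2458, 3952 and 4731 CPM against 3609.9, 5193 and 6721 in males (log2 -0.50, SE 0.16, adjusted p = 0.0163). The tropomyosin gene Tm1, up and wupA did not pass. Of the giant and Z-disc genes 7 of 10 were lower. Zasp67 held 0.338, 0.827 and 1.77 CPM in females and 1.26, 2.71 and 11.9 in males in overlapping groups (log2 -2.13, SE 0.43). Msp300 held 276, 369 and 503 CPM in females and 625, 907 and 1769 in males, without overlap (log2 -1.40, SE 0.20, adjusted p = 2.63e-05), and sls held 437, 636 and 813 against 827, 1097 and 1844, also without overlap (log2 -0.94). SERCA was lower without overlap as well, at 2313, 3331 and 3572 CPM against 4474, 5005 and 6608 (log2 -0.76, SE 0.14). The regulators differed from each other. Mef2 held 46.3, 54.3 and 65.9 CPM in females and 44.5, 54.3 and 63.3 in males (log2 0.00, SE 0.14), while salm held 2.49, 8.56 and 10.8 against 14.9, 22.4 and 27.0 with no overlap (log2 -1.58, SE 0.29, adjusted p = 0.000237).

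The females' bodies hold ovaries, and CPM, here TMM-normalised, are levels relative to the other polyadenylated RNA counted. Female germline markers were higher in females in 10 of 12 (median log2 3.16), testis markers were lower in 6 of 6, and the cytoplasmic counterparts were higher in 7 and lower in 1 of 11 (median 0.81), with the cytoplasmic actin gene Act5C at log2 1.17. Nerve markers were lower in 6 of 11 (median -0.49). The part of these tissues in the result was not tested. At 0 h alone (3 flies against 3) 21 genes were lower and 0 higher, with Act88F at log2 -1.95 (adjusted p = 0.01), fln at -1.44 (adjusted p = 0.064) and TpnC4 at -1.65 (adjusted p = 0.087), while salm stood at -1.73 (adjusted p = 0.0029). At 2 h alone 14 passed, with Act88F at log2 -3.11, fln at -3.48 and TpnC4 at -3.56, and 2 of the 3 males there were among the flies with high Act88F described below. The share of all genes called at 0 h alone or 2 h alone is not given here, so neither count has a background beside it.

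**Figure D3:**
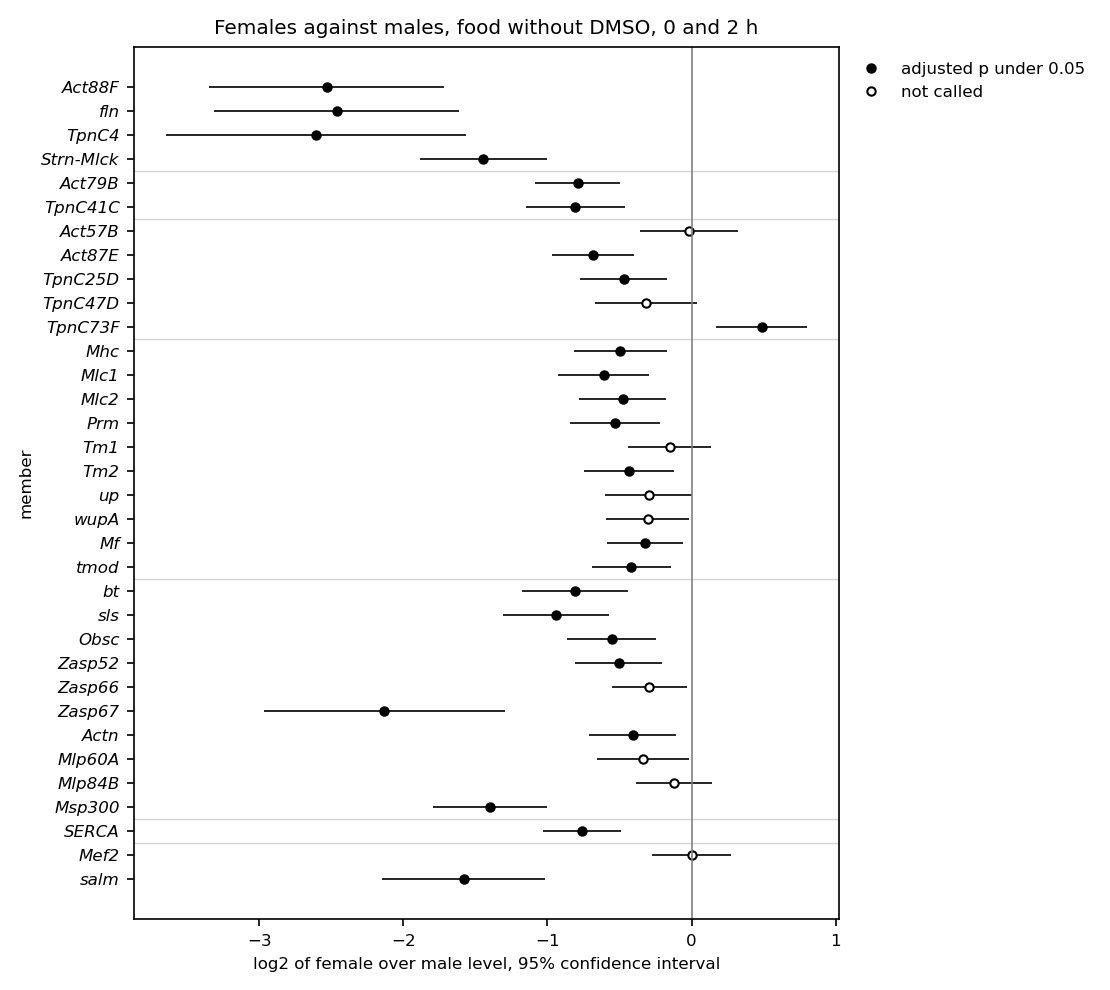
Log2 of the female over the male level of the 34 genes, with 95% confidence intervals, in DMSO-free flies of 0 and 2 h (6 of each sex). Filled points passed an adjusted p of 0.05; Act88F at -2.53, fln at -2.46 and TpnC4 at -2.60 lie farthest to the left, and TpnC73F at 0.49 is the filled point right of 0.

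Single flies stood far apart in flight muscle transcripts in both sexes. In 8 of the 96 flies Act88F exceeded 5 times the median of its sex, a limit set after the values were seen, so what follows is a description with no test. The female at 2 h on 0.2% DMSO, replicate 2, held 45.04 times the female median of Act88F, 93.0 times that of fln, 75.8 times that of TpnC4 and 61.2 times that of Zasp67. Strn-Mlck stood at 7.93 times its median in that fly. The other 29 genes lay between 0.929 and 4.01 times theirs (median 3.18), so most of them were high there too, by less. Zasp67, sorted above with the Z-disc genes, was kept out of these 29, which widens the gap between the sets. Its female median was 0.607 CPM, where 3 counts correspond to 0.326 to 1.15 CPM, so its ratio is uncertain. The male at 0 h on 0.2% DMSO, replicate 3, held 11.98 times the male median of Act88F, 19.4 times that of fln and 42.9 times that of TpnC4. Its other 29 genes had a median ratio of 1.23.

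The remaining 6 flies had lower Act88F ratios. The male at 2 h on 0.4% DMSO, replicate 2, stood at 7.27 times the median for Act88F and 24.1 times for TpnC4, with 1.34 for the other 29 genes. The 2 h males without DMSO, replicates 1 and 3, stood at 8.91 and 6.13 times for Act88F and at 17.9 and 21.0 times for TpnC4, with 1.38 and 1.36 for the other 29. Ribosomal RNA took 51.4% of the gene counts of replicate 3, the highest share of the series. The females at 4 h on 0.1% DMSO, replicate 1, at 2 h without DMSO, replicate 3, and at 2 h on 0.4%, replicate 1, stood at 8.05, 6.49 and 6.15 times for Act88F, with 1.41, 1.84 and 1.79 for the other 29 genes. In all 8 flies fln, TpnC4, Zasp67 and Strn-Mlck were above their medians as well. In these females at 4 h on 0.1%, 2 h without DMSO and 2 h on 0.4%, so were all other 29 genes. Their lowest ratios there were 1.05, 1.43 and 1.295. The highest ratios of the other 29 genes there were 2.14, 2.65 and 2.67. Strn-Mlck, at 1.72, 1.93 and 1.79 times in the same order, did not stand out from the other 29. Neither did Zasp67, at 2.64 times, in the female without DMSO.

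**Figure D4:**
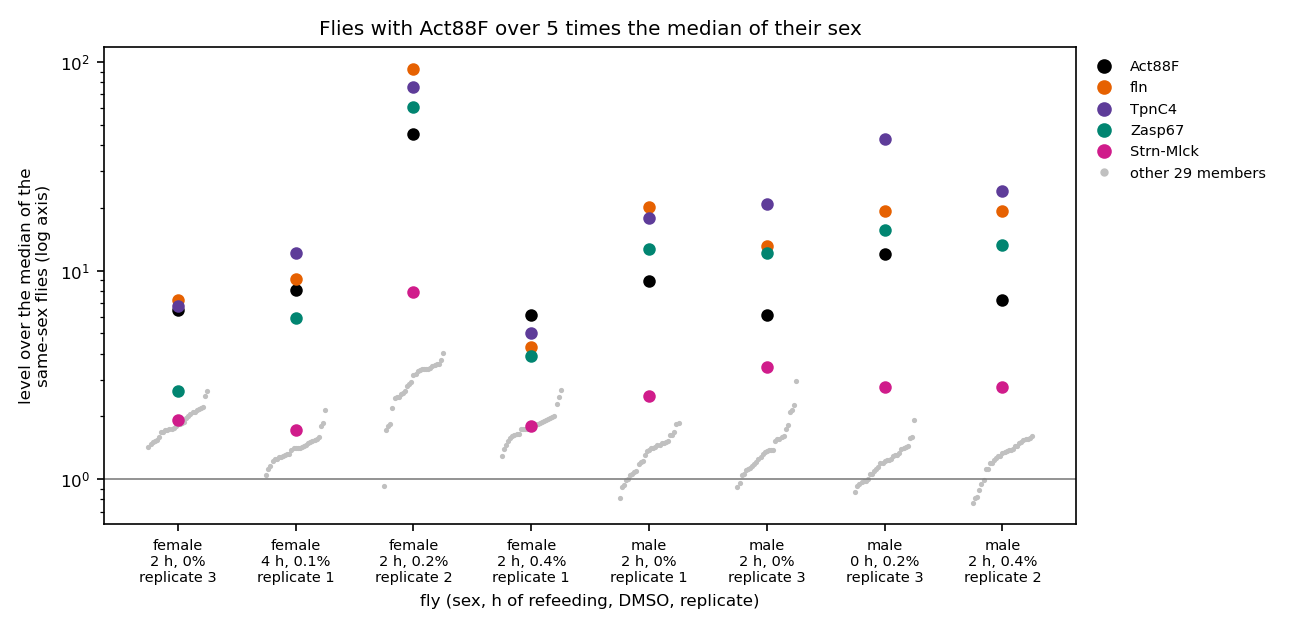
Level of each gene over the median of the same-sex flies, on a log axis, in the 8 flies with Act88F over 5 times the median of their sex. Coloured points are Act88F, fln, TpnC4, Zasp67 and Strn-Mlck and grey points the other 29 genes; in the female at 2 h on 0.2% DMSO the coloured points reach 93.0 times the median, and in the 4 males the grey points lie between 0.773 and 2.95.

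The spread between flies of 1 group was largest for 3 of the 4 flight muscle genes. As the SD of log2(CPM + 1) within groups of 3 flies, Act88F (1.47), TpnC4 (1.43), fln (1.33) and Zasp67 (0.852) had the highest values in females, where the median over the 34 genes was 0.725 and the lowest was Mef2 with 0.260. In males TpnC4 (1.46), fln (1.16), Act88F (0.888) and Zasp67 (0.757) led again, the median was 0.266 and the lowest was Act87E with 0.172. In single flies fln, TpnC4 and Zasp67 came down to the level of a few counts, while the lowest Act88F was 4.53 CPM. Strn-Mlck, the other flight muscle gene, ranked 12 of 34 in females (0.795) and 7 in males (0.371). Among females, the fly at 4 h on 0.4% DMSO, replicate 2, was the highest of 48 in 18 genes and the fly at 0 h on 0.1% DMSO, replicate 3, the lowest in 21.

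**Figure D5:**
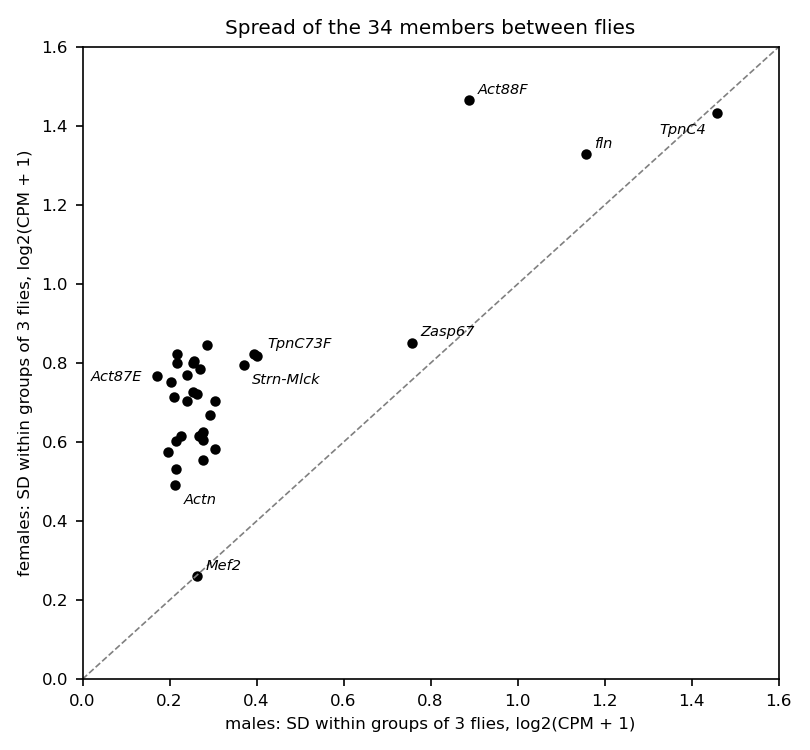
SD of log2(CPM + 1) within groups of 3 flies for each of the 34 genes, females on the vertical and males on the horizontal axis, with a dashed line where both are equal. Most genes lie above the line, with medians of 0.725 in females and 0.266 in males, and Act88F, TpnC4, fln and Zasp67 stand to the upper right.

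By edgeR on all libraries 0 sarcomere genes passed for DMSO at the levels tested, while DESeq2 called 12 in males at 8 h on 0.1%. The share of all genes that DESeq2 called there is not given here, so the 12 have no background beside them. In females each level was compared with none over 2, 4 and 8 h (9 flies against 9). At 0.1% DMSO 0 of 34 genes passed in edgeR, beside 0% of all genes, with a median log2 difference of 0.12 (0 at an unadjusted p of 0.05). At 0.2% 0 passed in edgeR, beside 0% of all genes, with a median of 0.20 and 3 unadjusted, and at 0.4% 0 passed, beside 0.00994% of all genes, with a median of 0.27 and 0 unadjusted. DESeq2 gave 0 at each level, and with the library that held male transcripts left out 0 passed at 0.4%. The 3 genes at 0.2% were Act88F (log2 1.39, SE 0.66, adjusted p = 0.678), fln (1.59) and TpnC4 (1.65), in the group that holds the female at 2 h, replicate 2. For Mhc the 95% confidence interval of the log2 difference ran from -0.53 to 0.84 at 0.1%, from -0.50 to 0.87 at 0.2% and from -0.31 to 1.06 at 0.4%.

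In males DMSO was compared with none at 8 h, where all libraries came from 1 run (3 flies against 3). At 0.1% DMSO 0 of 34 passed in edgeR, beside 0.00791% of all genes, while all 34 differences were above 0 with a median of 0.71 (23 unadjusted, 12 by DESeq2). Act79B held 1470, 1224 and 2021 CPM without DMSO and 4181, 2736 and 3430 on 0.1%, with no overlap (log2 1.13, SE 0.22, adjusted p = 0.0524). It held 2341, 1977 and 2277 on 0.2% and 1539, 2697 and 3168 on 0.4%, so the levels did not follow the dose. SERCA held 4050, 3513 and 3805 CPM without DMSO and 8584, 5599 and 6941 on 0.1% (log2 0.89, SE 0.23, adjusted p = 0.152), and Mhc 2301, 2091 and 2839 against 5340, 3322 and 4164 (log2 0.83, SE 0.22, adjusted p = 0.175). The groups did not overlap in either gene, and replicate 1 on 0.1% was the highest fly in both.

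The count at 0.1% was 19 without replicate 2 on 0.1% DMSO and 1 without replicate 3 without DMSO. All 11 nerve markers had differences above 0 there (median log2 0.81, 8 unadjusted), and their part was not tested. At 0.2% 0 passed in edgeR, beside 0.00791% of all genes, with a median of 0.39 (9 unadjusted, 0 by DESeq2), and at 0.4% 0 passed, beside 0% of all genes, with a median of 0.35 (9 unadjusted, 0 by DESeq2). These 3 comparisons share the same 3 control flies, so their differences are not independent. Set directly against 0.1% over 2, 4 and 8 h (9 flies against 9), 0.4% gave 0 of 34 in edgeR, beside 0% of all genes, with a median of 0.03 (2 unadjusted, 0 by DESeq2).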

How the data were processed

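The authors deposited raw read counts for 17370 genes, 1 table for each library. The tools were HTSeq 0.6.1p1, TopHat2 2.1.0, STAR 2.4.2a, bcl2fastq 1.8 and CASAVA 1.8.2, per the submitters' processing notes, which give no roles in the form used here. No coordinates are printed, with a build not given in the sources used here. Summary rows (8.75 to 23.5% of a library's counts) and 96 spike-ins stayed out of library sizes.

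Tests used edgeR 4.0.16 (quasi-likelihood, TMM scaling, default expression filter, R 4.3.3) with Benjamini-Hochberg adjustment over all genes tested at 0.05. Fits held the 48 females (10060 genes), the 48 males (12644), 12 flies without DMSO (12069) or all 96 flies (13061), and all 34 genes passed each filter. CPM are TMM-normalised within a sex, or within the 12 flies for the comparison of the sexes, unless called unnormalised. CPM per kb used exon lengths of the Ensembl annotation. SE was the log2 change over the square root of F. DESeq2 1.42.0 was an alternative. All tests were two-sided.

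Replicates were separate flies; of 96 replicate pairs 0 were identical, and chi-square per degree of freedom was at least 4.71. Same-numbered flies of different groups had a median correlation of deviations of -0.016 in females and 0.000271 in males. Single pairs ran from -0.781 to 0.738 in females and from -0.419 to 0.364 in males. A median cannot exclude a link between some of these flies. They were treated as unpaired, and counts with a replicate block are given below. Floors of 3 counts cover counting error only. Confidence intervals were made from the SE of the edgeR fit, which includes the spread between flies. They used normal quantiles, so they may be too narrow, most of all in the fit of 12 flies with 8 residual degrees of freedom.

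The genes, lists and tests were chosen with earlier results of these data known. Values by group are given for Act88F, fln, TpnC4, Act79B, TpnC41C, Act57B, Act87E, TpnC25D, TpnC47D, TpnC73F, Mhc, wupA, sls, SERCA, Mef2 and salm, beside up to 5 called genes with the largest change per comparison, and up to 4 genes of any other list. A few others were named after their values were seen. Alternatives were RLE scaling, no filter, a replicate block, no ribosomal RNA genes, other sets of foods or times, and each library left out.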

Additional observations from a re-analysis of the deposited data

Results flagged for a closer look

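Each value below lies far from the other flies of its group by Dixon's test, in CPM. Of 96 groups tested 20 had such a fly, and 12 of the 18 groups tested for Act88F, fln and TpnC4 were among them. Chance flags about 1 in 20 groups of normally distributed values. The values here were CPM without a log, and each group pooled times or DMSO levels, so that rate may not hold. No group held females on DMSO, so the 2 h female on 0.2% replicate 2 was not tested. The groups share flies, so the flags are not independent.

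Among 6 females without DMSO at 0 and 2 h, the 2 h fly replicate 3 was highest in Act88F with 141.5 (others 23.4 to 54.5), in fln with 25.22 (3.74 to 7.59) and in TpnC4 with 18.97 (1.56 to 8.06). Among 9 males at 0 h on the foods with DMSO, the fly on 0.2% replicate 3 was highest in Act88F with 1235 (65.1 to 171), in fln with 174.7 (1.59 to 26.6) and in TpnC4 with 317.5 (1.06 to 39.9).

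Among 9 males at 2 h on these foods, the fly on 0.4% replicate 2 was highest in Act88F with 749.9 (84.0 to 145), fln with 174.8 (4.41 to 27.0), TpnC4 with 178.3 (1.73 to 31.8), Act79B with 3655 (2360.0 to 2732) and Mhc with 5246 (3223 to 3827). At that time wupA was highest on 0.4% replicate 1 with 1349 (632.5 to 921), and SERCA was lowest on 0.1% replicate 1 with 2353 (3744 to 4909).

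Among 9 males at 4 h, Act88F was highest on 0.2% replicate 2 with 460.1 (55.1 to 139) and fln on 0.2% replicate 3 with 31.21 (3.22 to 15.6). The shallowest library, on 0.4% replicate 1, was highest in Act87E with 1787 (720.2 to 1148) and in Mef2 with 76.21 (32.4 to 51.7). Among 9 males at 8 h, TpnC4 was highest on 0.2% replicate 3 with 22.77 (1.16 to 10.3), and the fly on 0.1% replicate 1 was highest in TpnC25D with 269.4 (138 to 175) and in Mef2 with 80.41 (39.5 to 55.6).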

How the results depend on the processing

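Counts are of the 34 genes, in the comparisons and alternatives run here. The share of all genes called is not given for the alternatives, so their counts have no background beside them. No value changed direction past the threshold. For females at 2 h against 0 h the 15 genes became 19 with RLE scaling, 12 without a filter, 19 without ribosomal RNA genes, 26 with DESeq2, 14 with the foods with DMSO and 0 with food without DMSO. For females at 8 h against 2 h the 31 became 28 without a filter, 32 with DESeq2, 1 with only the foods with DMSO and 0 with food without DMSO. For males at 8 h against 2 h the 1 became 0 without a filter or without ribosomal RNA genes, 2 with DESeq2 and 12 over all 4 foods, of which 11 fell. For females against males the 25 became 29 with DESeq2, 21 at 0 h alone and 14 at 2 h alone. DESeq2 gave 7 and 3 genes for the sex difference in the change from 0 to 2 h and from 2 to 8 h, and 12 for males at 8 h on 0.1% DMSO. The alternatives with 0 h or 2 h alone and with food without DMSO alone were added after seeing the data. The cause of these changes was not tested, except that comparisons within 1 food or time hold fewer flies by construction.

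With the replicate number as a replicate block, the counts were 13 for females at 2 h against 0 h, 30 for females at 8 h against 2 h, 4 for males at 8 h against 0 h, 2 for males at 8 h against 2 h and 24 for females against males; the other counts stayed at 0. Leaving out 1 library gave 3 to 31 genes for females at 2 h against 0 h, 16 to 34 for females at 8 h against 2 h, 1 to 7 for males at 8 h against 0 h, 0 to 2 for males at 8 h against 2 h, 21 to 29 for females against males and 0 to 19 for males at 8 h on 0.1% DMSO. The other counts of 0 stayed at 0. In the fit of 96 libraries single libraries were left out for the 2 with doubtful labels only; the rest were not run. Depth limits fln, TpnC4 and Zasp67 most, where 3 counts correspond to 0.326 to 1.15 CPM in females and 0.353 to 3.13 in males.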
